A study of Caenorhabditis elegans with 6 samples.

Results

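The genes described here encode proteins of the precuticle and of other apical matrices of Caenorhabditis elegans. They are noah-1, noah-2, fbn-1, let-653, sym-1, lpr-3, mlt-11 and dex-1, taken by symbol from the array's annotation, and all 8 were measured, of 17118 genes in all. They are read by 16 probe sets. Where several probe sets named a gene, its main probe set was chosen by the highest mean log2 level over the 6 arrays. The symbols were selected on earlier results of the same arrays, the tyrosol-minus-control differences among them, so the differences between groups below describe these genes, and a count over them is not independent evidence of anything.

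The precuticle is a transient extracellular matrix that epidermal and other epithelial cells secrete on their outer face before each new cuticle is built, in the embryo and again at each larval moult. It shapes the surface and the lumens of narrow tubes, and it is cleared or remodelled once the collagen cuticle is in place. Adults do not moult, and their cuticle is the last that is made. Many precuticle proteins carry a zona pellucida (ZP) domain, which lets secreted proteins join into filaments.

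The study measured messenger RNA in whole worms of the strain fer-15 (b26), whose sperm fail to fertilise at the restrictive temperature; both groups carried this mutation. Control worms grew on plates with the vehicle alone and treated worms on plates with 250 µM tyrosol, a phenolic alcohol of olive oil. Both kinds of plate held 0.1% ethanol, exposure began at the egg stage, and worms raised at 25 °C were collected on day 4 of adulthood. There were 3 control and 3 tyrosol arrays of the Affymetrix C. elegans Genome Array, and the sources used here give neither the number of worms in a sample nor that of separate cultures. P-values therefore measure only the spread between these arrays.

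Values are log2 expression as deposited by the authors, where a difference of 1 is a doubling. Array medians lay between 2.57 and 2.61, which gives a reference for a faint signal, and levels of different probe sets are not compared with each other. The array of tyrosol replicate 2 was the least like the others: its deviations from the mean of its group had an SD of 0.213, against 0.111 to 0.154 on the other arrays. The mean difference between the 3' and the middle probe sets of 5 added poly-A control transcripts was 1.28 on that array and 0.646 to 0.833 on the others. Markers of the adult hermaphrodite were present. The yolk gene vit-5 read 12.47 ± 0.026 in control and 12.42 ± 0.098 in tyrosol worms (SD, n = 3 each), and 6 of 8 adult markers lay above the array median on all 6 arrays, the exceptions being the adult cuticle collagens bli-1 and bli-2.

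All 8 genes read higher, on average, in worms on tyrosol than in control worms, and 4 of them rose by the rank product, the test the study's design names: noah-1, noah-2, lpr-3 and mlt-11. Calls were made over all 22548 probe sets, at a false discovery rate (FDR) estimated below 0.05. For the 4 called genes the differences ran from 0.83 to 1.19 on the log2 scale, and for the other 4, fbn-1, let-653, sym-1 and dex-1, from 0.24 to 0.59. Over all 17118 genes 0.865% were called higher at their main probe set, and 0.0234% lower. The rank product takes all probe sets to have a like spread. On simulated data with unequal spread it called more unchanged probe sets than its FDR states, which bears on the FDRs below. The median difference of the 8 genes was 0.71, beside -0.017 over all genes. Limma, which also gives each difference its standard error, called lpr-3 and noah-2 over all probe sets, where 0.339% of genes were called higher. The limma call of noah-2 was lost without any 1 array (adjusted p 0.084 to 0.232), and that of lpr-3 held only without control replicate 2 (adjusted p 0.0814 to 0.213 without the others). With the replicate number as a block limma called noah-1, noah-2, lpr-3 and mlt-11, where 0.707% of genes were called higher. The labels do not say that replicate numbers pair the samples. In 7 of the 8 genes every tyrosol array lay above every control array, a pattern shown by 6.92% of all genes, and fbn-1 was the exception. As the list was drawn up with this contrast known, nothing is read from these shares. In whole worms, more cells that express a gene and more RNA per cell cannot be told apart.

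**Figure D1:**
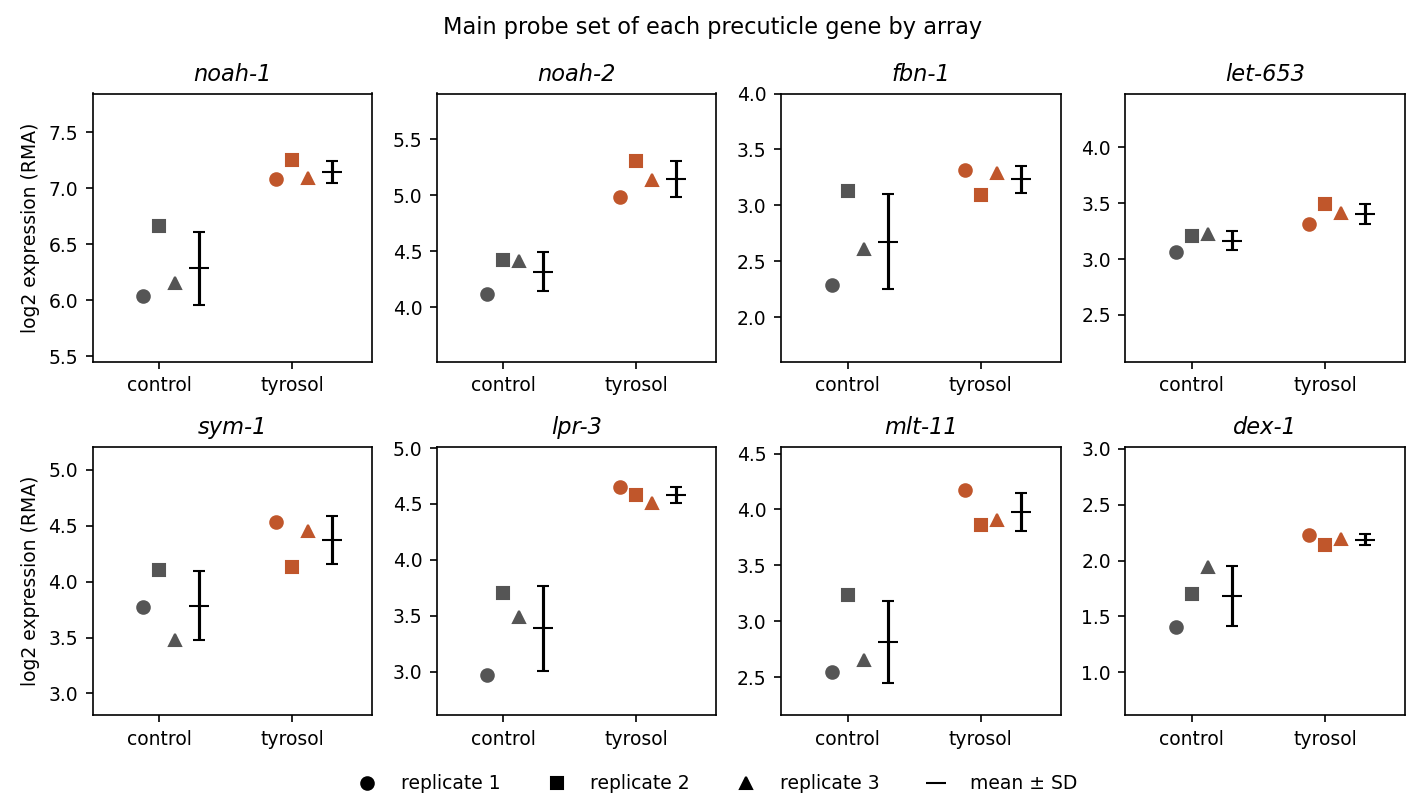
Log2 expression (RMA, y axis, every panel spanning the same range) of the main probe set of each of the 8 genes in the 3 control and the 3 tyrosol arrays; symbols mark the replicate number and bars the mean ± SD. Control and tyrosol values overlap for fbn-1 alone, and control replicate 2 is the highest control for 6 of the 8 genes.

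Of noah-1, noah-2, fbn-1 and let-653, which all encode ZP-domain proteins, noah-1 and noah-2 rose and the other pair did not pass. NOAH-1 and NOAH-2 are membrane-anchored relatives of a fly protein of sensory organs. Both are needed in the worm for the embryo to elongate and keep its shape. In control worms the main probe set of noah-1 read 6.04, 6.66 and 6.15 (replicates 1, 2 and 3, the order used throughout), and in tyrosol worms it read 7.09, 7.26 and 7.09. The groups did not overlap, and the controls were more scattered than the tyrosol arrays, with means of 6.28 ± 0.33 and 7.15 ± 0.096 (SD, n = 3 each). The difference of noah-1 was 0.86 (SE 0.16), a 1.82-fold rise, with an FDR of 0.0108 and a limma adjusted p of 0.0958, or 0.0319 with the replicate block. It ranked 89th among the 17118 genes.

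A second probe set of noah-1 read 4.57, 5.14 and 4.81 in the controls and 5.32, 5.10 and 5.49 in the tyrosol arrays. Its groups overlapped, since tyrosol replicate 2 lay below control replicate 2. Its difference was 0.46 (SE 0.16), with an FDR of 0.215.

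For noah-2, which has a single probe set here, the controls read 4.11, 4.42 and 4.41 and the tyrosol arrays 4.98, 5.30 and 5.14. Every tyrosol value exceeded the highest control by at least the distance between the lowest and the highest control. The means were 4.32 ± 0.18 and 5.14 ± 0.16 (SD, n = 3 each), a difference of 0.83 (SE 0.13) and a 1.77-fold rise. The FDR of noah-2 was 0.0103 and its limma adjusted p 0.0499, or 0.0195 with the replicate block, and it ranked 98th of all genes. The suffix of its probe set, _s_at, marks probes shared by several transcripts.

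The calls of noah-1 and noah-2 were lost without any 1 tyrosol array. Without tyrosol replicate 1, 2 or 3 in turn, the FDR of noah-1 was 0.0751, 0.083 and 0.0792, and that of noah-2 was 0.0548, 0.0876 and 0.0884. The differences themselves stayed between 0.74 and 1.05 for noah-1 and between 0.72 and 0.91 for noah-2 without any 1 array. Without both replicate 2 arrays noah-1 was called (0.99, FDR 0.0398) and noah-2 was not (0.80, FDR 0.089).

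FBN-1 is a fibrillin-related protein with many EGF-like repeats that resists mechanical strain on the embryonic epidermis and is needed for moulting. The main probe set of fbn-1 read 2.28, 3.13 and 2.61 in the controls and 3.32, 3.10 and 3.29 in the tyrosol arrays. The groups overlapped, because control replicate 2 read above tyrosol replicate 2. The difference was 0.56 (SE 0.20), with an FDR of 0.121 (limma adjusted p = 0.537). Between same-numbered arrays fbn-1 differed by 1.03, -0.033 and 0.68. Without control replicate 2 its difference was 0.79 and the rank product called it (FDR 0.0208). Without control replicate 1 its difference was 0.36 (FDR 0.546), and with its probe sets averaged it was 0.35 (FDR 0.395). Its second probe set lay below the array median on every array and differed by 0.14 (SE 0.13).

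LET-653 is a mucin-like ZP-domain protein that lines and shapes narrow lumens, the excretory duct and the developing vulva among them. The probe set of let-653 read 3.07, 3.21 and 3.22 in the controls and 3.31, 3.50 and 3.41 in the tyrosol arrays. These groups did not overlap, but the step was small. The difference of 0.24 (SE 0.096), 1.18-fold, had an FDR of 0.891 and a limma adjusted p of 0.637. It ranked 1069th of all genes, far behind the other 7, which lay among the first 241.

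The secreted lipocalin gene lpr-3 and the moulting gene mlt-11 held the largest differences among the 8. LPR-3 belongs to a family of proteins that carry small lipophilic molecules, and it is needed for the barrier of the epidermis and for an open excretory tube. The main probe set of lpr-3 read 2.97, 3.71 and 3.49 in the controls and 4.66, 4.58 and 4.50 in the tyrosol arrays. The tyrosol values lay close together and well above all controls, with means of 3.39 ± 0.38 and 4.58 ± 0.075 (SD, n = 3 each). Its difference of 1.19 (SE 0.18) was a 2.29-fold rise, with an FDR of 0.000833 and a limma adjusted p of 0.0446, or 0.0326 with the replicate block. It ranked 27th of all genes. This probe set is cross-hybridising, which means that its suffix, _x_at, marks probes shared with other sequences.

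The other probe set of lpr-3, which is not cross-hybridising, read 3.17, 3.76 and 3.63 in the controls and 4.26, 4.17 and 3.96 in the tyrosol arrays. Its groups did not overlap either. Its difference was 0.61 (SE 0.16), with an FDR of 0.0819 over all probe sets and 0.064 when cross-hybridising probe sets were left out, so lpr-3 was not called on it.

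MLT-11 is a large secreted protein with Kunitz-type protease inhibitor domains, and worms that lack it fail to moult properly. The main probe set of mlt-11 read 2.55, 3.23 and 2.65 in the controls and 4.17, 3.86 and 3.90 in the tyrosol arrays. All tyrosol values lay above all controls, of which control replicate 2 was the highest, with means of 2.81 ± 0.37 and 3.98 ± 0.17 (SD, n = 3 each). Its difference of 1.16 (SE 0.18) was a 2.24-fold rise, with an FDR of 0.00148 and a limma adjusted p of 0.0533, or 0.0464 with the replicate block. It ranked 34th of all genes. Like that of noah-2, this probe set carries the suffix _s_at.

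Of the 3 other probe sets of mlt-11, a cross-hybridising one was called higher too, at 0.71 (SE 0.19, FDR 0.0383), with values of 2.52, 3.36 and 2.77 in the controls and 3.54, 3.64 and 3.61 in the tyrosol arrays. The remaining pair was not called, at 0.48 (SE 0.17) and 0.085 (SE 0.11). The fainter of these read 0.90 to 1.28 over the 6 arrays, near the bottom of the scale, where little can be read from a difference. The calls of lpr-3 and mlt-11 at their main probe sets held without any 1 of the 6 arrays, with differences of 0.98 to 1.35 and of 1.03 to 1.37.

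SYM-1 is a secreted protein with leucine-rich repeats that is needed, together with the splicing factor MEC-8, for muscle to stay attached to the body wall. The main probe set of sym-1 read 3.78, 4.10 and 3.48 in the controls and 4.53, 4.13 and 4.45 in the tyrosol arrays. The groups came close without overlapping, as control replicate 2 and tyrosol replicate 2 differed by 0.032. The difference was 0.59 (SE 0.17), with an FDR of 0.0914 (limma adjusted p = 0.392). Without control replicate 2 it was 0.74 and sym-1 was called (FDR 0.0328).

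DEX-1, related to the tectorins and zonadhesin of mammals, anchors the dendrite tips of sensory neurons during embryonic development and acts in the lateral epidermis. The main probe set of dex-1 read 1.41, 1.70 and 1.94 in the controls and 2.23, 2.14 and 2.20 in the tyrosol arrays, below the array median on all 6. The tyrosol values lay within a narrow band above the controls. The difference was 0.50 (SE 0.14), with an FDR of 0.157 and a limma adjusted p of 0.326. The second probe sets of sym-1 and dex-1, also below the array median on every array, differed by 0.34 (SE 0.13) and 0.24 (SE 0.13) and were not called. Both probe sets of dex-1 carry the suffix _s_at.

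**Figure D2:**
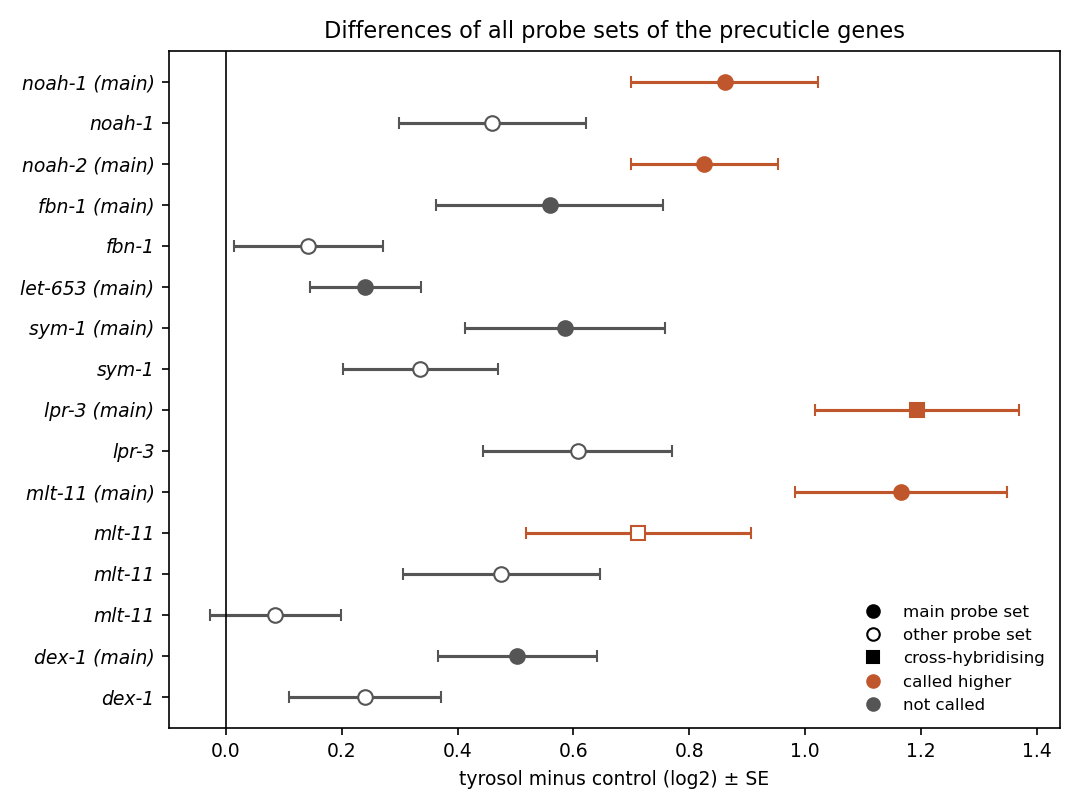
Tyrosol-minus-control difference on the log2 scale with its limma standard error (x axis) for all 16 probe sets of the 8 genes (y axis); filled symbols are main probe sets, squares cross-hybridising ones, and orange marks those the rank product called higher. All 16 differences lie above 0 and 5 are called. In each of the 6 genes with several probe sets the main one has the largest difference. It was chosen by a mean that includes the tyrosol arrays.

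Probe sets of a gene thus gave unequal differences. In all 6 genes with several probe sets the main one had the largest difference, and only 1 of the 8 other probe sets was called. The main one was chosen by its mean over all 6 arrays, so a larger rise itself helped a probe set to be chosen. In lpr-3, mlt-11 and dex-1 another probe set had a higher control mean (3.52, 2.88 and 1.70, against 3.39, 2.81 and 1.68). The pattern is thus partly a result of the choice, and nothing is read from it. Over all probe sets 0.927% were called higher. With a gene's probe sets averaged, noah-1, noah-2, lpr-3 and mlt-11 were again called, at 0.66, 0.83, 0.90 and 0.61. Where each probe set lies along its transcript was not analysed here.

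The 8 genes also varied together among arrays of the same group, a measure that leaves out the difference between groups. Control replicate 1 was the lowest control for 7 of the 8 genes, sym-1 being the exception, and control replicate 2 the highest for 6, the exceptions being let-653 and dex-1. Relative to the control means, the 8 genes averaged -0.24, 0.26 and -0.019 in the 3 control arrays and 0.77, 0.72 and 0.73 in the 3 tyrosol arrays. The tyrosol arrays lay close together on this average, and the control arrays did not, with control replicate 2 nearest to the tyrosol arrays. Over the deviations from the group means, the 28 pairs of genes had a mean Pearson r of 0.47, with 25 pairs above 0 and a range from -0.41 to 0.99. The mean over all pairs of the 17118 genes was 0.013. In that mean positive and negative pairs offset each other, and the 8 were selected on these arrays, so nothing is read from the contrast. These correlations rest on 6 arrays that all genes share and are a description. The SD was larger among the controls than among the tyrosol arrays for 7 of the 8 genes, beside 41.8% of all genes. It was not particular to them. Of genes below that also rose, control and tyrosol SDs were 0.95 and 0.14 for msp-77, 0.31 and 0.11 for dpy-14 and 0.27 and 0.14 for ces-2. They went the other way for cutl-16 (0.33 and 0.39), dlg-1 (0.18 and 0.20) and ceh-32 (0.20 and 0.22).

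**Figure D3:**
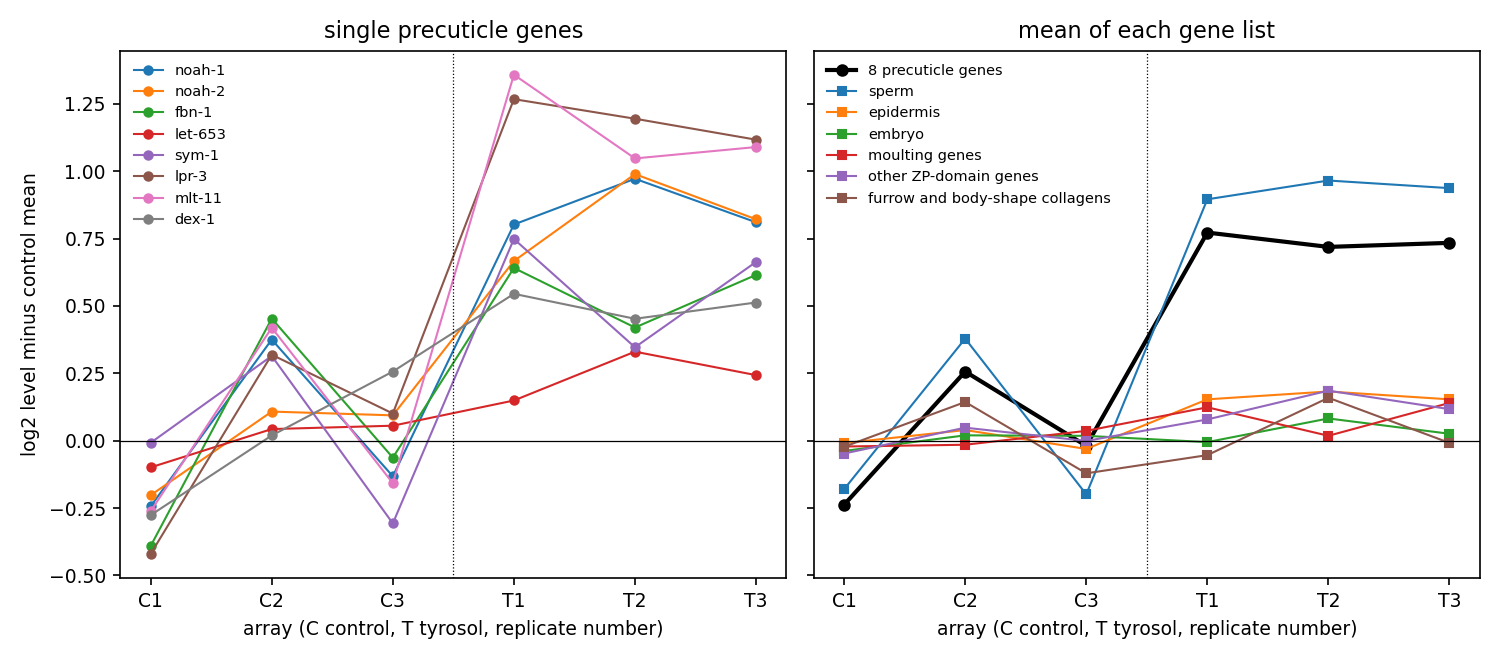
Log2 level minus the control mean (y axis) on each array (x axis; C control, T tyrosol, with the replicate number), for each of the 8 genes on the left and for the mean of the 8 and of 6 gene lists on the right; lines only join the values of a gene or list. The mean of the 8 genes is 0.26 in control replicate 2 and 0.72 to 0.77 in the tyrosol arrays, and the mean of the sperm list is 0.38 in control replicate 2 and 0.90 to 0.97 in the tyrosol arrays.

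Other genes of the same processes were read from fixed lists, and their counts stand beside the shares over all genes: 0.865% called higher by the rank product, and, counting both directions, 7.21% with an unadjusted limma p under 0.05. With lists of this size few or no calls are the background. Of 30 moulting genes outside the 8, which include the moulting regulators nhr-23, lin-42 and myrf-1 and the metalloproteases nas-36 and nas-37, the rank product called 0, limma called 0, and 6 had an unadjusted limma p under 0.05. Their median difference was 0.054, and 20 of 30 lay above 0, where 44.7% of all genes did. The list member with the highest mean, let-767, which encodes an enzyme of the steroid dehydrogenase family, differed by 0.077 (SE 0.094). Of 26 other apical matrix genes, such as the remaining lipocalins and the leucine-rich repeat genes let-4 and egg-6, the rank product and limma called 0, and 3 had an unadjusted limma p under 0.05. Their median was 0.058, and egg-6, the member with the highest mean, differed by 0.068 (SE 0.11).

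Among 35 measured ZP-domain genes outside the 8, the cuticlin-like genes cutl-16, cutl-9 and cutl-29 rose, the list's median was 0.027, and 8 of 35 had an unadjusted limma p under 0.05. Cuticlins are insoluble ZP-domain proteins of the cuticle. For cutl-16 the controls read 4.77, 5.34 and 4.75 and the tyrosol arrays 6.20, 6.83 and 6.13, a difference of 1.43 (SE 0.22) and a 2.70-fold rise. For cutl-9 the controls read 1.89, 2.41 and 1.99 and the tyrosol arrays 3.68, 3.63 and 3.21, a difference of 1.41 (SE 0.17, limma adjusted p = 0.0264). The controls of cutl-9 lay below the array median. The third, cutl-29, rose by 0.65 (SE 0.12, FDR 0.0432). Without any 1 array the calls of cutl-16 and cutl-9 held, and that of cutl-29 held only without control replicate 2, with FDRs of 0.122 to 0.247 without the others. With a gene's probe sets averaged, cutl-9 differed by 0.74 and was still called, and cutl-29 differed by 0.30 and was not (FDR 0.576).

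Of 20 collagens of the furrows and body shape and their processing enzymes, dpy-14 alone rose, by 0.92 (SE 0.16, FDR 0.00682), while sqt-3, with the highest mean, differed by 0.091 (SE 0.095); its probe set is a cross-hybridising one, and without such probe sets sqt-3 was called at 0.77 (FDR 0.0165). The list's median was -0.043, and 4 of 20 had an unadjusted limma p under 0.05. Of 53 hedgehog-related genes, small secreted proteins of epithelia, wrt-10 alone rose, by 0.74 (SE 0.13, FDR 0.0211). Their median was -0.033, 3 of 53 had an unadjusted limma p under 0.05, and grd-3, with the highest mean, differed by 0.29 (SE 0.12). The call of dpy-14 was lost without any 1 tyrosol array (FDR 0.0538 to 0.0621). That of wrt-10 was lost without these or control replicate 1 (FDR 0.0875 to 0.184), and also without both replicate 2 arrays (FDR 0.0798).

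Among 22 epidermal genes, dlg-1, which encodes a scaffold protein of epithelial junctions, rose from 7.45 ± 0.18 to 8.50 ± 0.20 (SD, n = 3 each), a difference of 1.05 (SE 0.14, limma adjusted p = 0.0318), and its rank product call held without any 1 array. The epidermal factor gene lin-26, with the highest mean of the list, differed by 0.042 (SE 0.092). The list's median was 0.12, 17 of 22 genes lay above 0, and 8 had an unadjusted limma p under 0.05. The list's level, summed over the genes on the linear scale, ran from 1793 to 1845 in the controls and from 2120 to 2260 in the tyrosol arrays. Such a sum weighs the strongest genes most, and the rise of dlg-1 is part of it. Relative to its control mean, the mean log2 level of the list was -0.031 to 0.040 in the controls. In the tyrosol arrays it was 0.15 to 0.18. The lowest log2 level of any gene of the list on any array was 0.95. The part of epidermal RNA in the differences of the 8 genes was not tested.

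Lists of other cells and stages, likewise drawn up with earlier results known, were read on the same arrays. Of 58 genes listed for the embryo, 2 rose. The bZIP transcription factor gene ces-2 rose by 1.14 (SE 0.15, FDR 0.00118). The homeobox gene ceh-32, of the developing head, rose by 0.83 (SE 0.15, FDR 0.00694). The call of ceh-32 was lost without tyrosol replicate 2 or 3 (FDR 0.0846 and 0.0627), without both replicate 2 arrays (0.60, FDR 0.187) and with probe sets averaged (0.52, FDR 0.0888), and that of ces-2 held without any 1 array. The list's median was -0.0064, 7 of 58 had an unadjusted limma p under 0.05, and pal-1, with the highest mean, differed by 0.20 (SE 0.11). The list's summed linear level ran from 1106 to 1147 in the controls and from 1171 to 1281 in the tyrosol arrays. Such a sum weighs the strongest genes most, pal-1 above all. Relative to its control mean, the mean log2 level of the list overlapped between groups. It was -0.038 to 0.020 in the controls and -0.0052 to 0.083 in the tyrosol arrays. Of 43 sperm genes 26 rose, 25 of them on cross-hybridising probe sets, with a median of 0.99 over the list and 31 of 43 at an unadjusted limma p under 0.05. The summed level of the sperm genes was 430, 741 and 443 in the 3 control arrays and 1192 to 1231 in the tyrosol arrays. The largest difference was that of the major sperm protein gene msp-77, at 2.00 (SE 0.40), followed by msp-19, msp-31, msp-78 and msp-55, at 1.88 to 1.93, and msp-65, with the highest mean, differed by 1.54 (SE 0.24). Control replicate 2 was thus the highest control both for the sperm list and for the mean of the 8 genes. The part of embryonic or sperm RNA in the differences of the 8 genes was not tested.

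Of 9 genes listed for the male soma the rank product called 0, limma called 0 and 1 had an unadjusted limma p under 0.05. Their summed level was 28.9 to 31.9 in the controls and 25.7 to 31.3 in the tyrosol arrays, and cwp-5, with the highest mean, differed by -0.31 (SE 0.12). Of 11 genes of the excretory tubes and 10 of glia, cells in which LET-653, LPR-3 or DEX-1 act, the rank product and limma called 0, with 2 and 1 at an unadjusted limma p under 0.05. Their medians were 0.067 and 0.074, and erm-1 and lit-1, with the highest means, differed by 0.16 (SE 0.11) and 0.31 (SE 0.18). Of the 8 adult markers the rank product and limma called 0, and 0 had an unadjusted limma p under 0.05.

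The genes whose pattern over the 6 arrays was most like the mean of the 8 were sought by Pearson r among 1162 genes, those with a mean of at least 4, a main probe set that is not cross-hybridising and an SD over the arrays of at least 0.5 of that of the mean profile. The 10 with the highest r, from 0.974 to 0.984, were dpy-14, ces-2, C33D9.5, fbxc-40, zip-2, wrt-10, hch-1, T02E9.5, lam-1 and ceh-43. The collagen gene dpy-14 was the most alike, with 4.13, 4.73 and 4.28 in the controls and 5.23, 5.43 and 5.25 in the tyrosol arrays. The gene hch-1 encodes the protease that softens the eggshell at hatching; it read 3.71, 4.45 and 3.85 in the controls and 5.09, 5.31 and 4.94 in the tyrosol arrays. The homeobox gene ceh-43 read 5.17, 5.71 and 5.26 in the controls and 6.29, 6.27 and 6.59 in the tyrosol arrays. In all 10 the tyrosol values lay above the control values, and the rank product called 9, the exception being the bZIP gene zip-2, at 0.51 (SE 0.094, FDR 0.124). The call of lam-1, which encodes a laminin chain of basement membranes, held without control replicate 2. It was lost without any other array (FDR 0.0624 to 0.174), without both replicate 2 arrays (FDR 0.0692) and with probe sets averaged (0.42, FDR 0.213). The call of T02E9.5 was lost without tyrosol replicate 2 (FDR 0.0542) and that of ceh-43 without tyrosol replicate 3 (FDR 0.0733). As r over 6 arrays in 2 groups is set mostly by the difference between groups, these genes share that difference with the 8 by the way they were chosen. The cut at a mean of 4 uses the tyrosol arrays too. Both ces-2, with a control mean of 3.87, and fbxc-40, with controls of 3.18, 3.82 and 3.42, passed it only through those arrays.

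**Figure D4:**
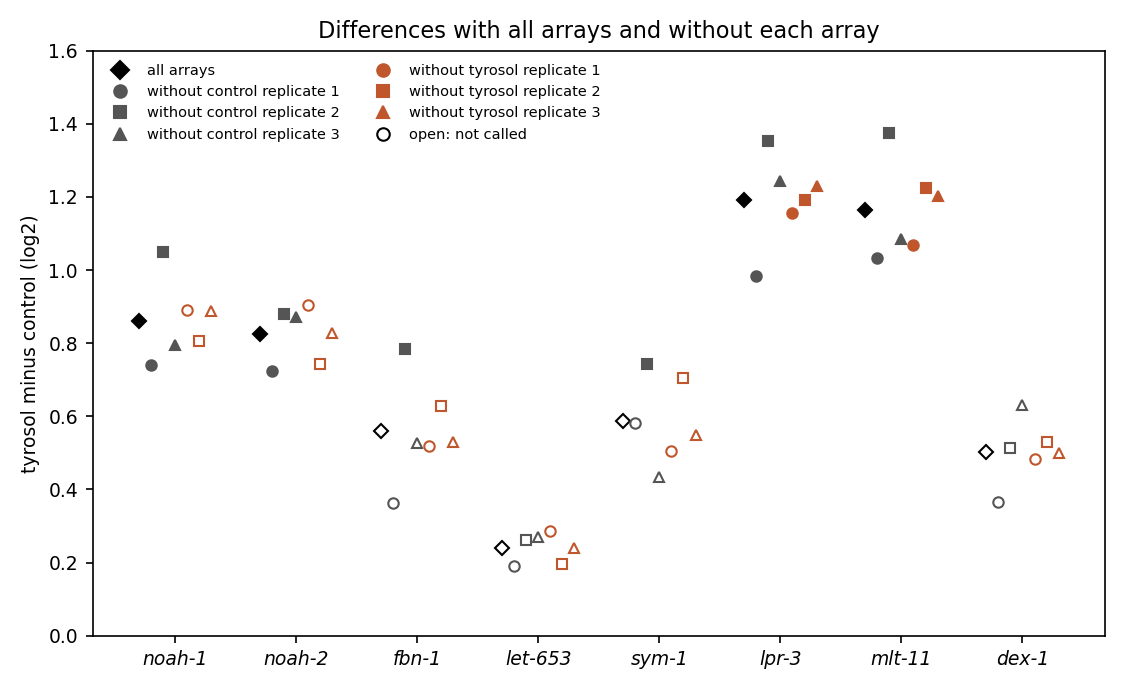
Tyrosol-minus-control difference on the log2 scale (y axis) of the main probe set of each gene (x axis) with all arrays and without each array in turn; filled symbols were called higher by the rank product and open ones were not. For lpr-3 and mlt-11 all symbols are filled, noah-1 and noah-2 are open without any 1 tyrosol array, and fbn-1 and sym-1 are filled only without control replicate 2.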

How the data were processed

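The authors hybridised labelled RNA (50 ng of total RNA with an integrity number above 7; 15 µg of labelled product) to Affymetrix arrays and deposited log2 values, which per the labels were made with RMA (background correction, quantile normalisation, a summary per probe set). The sources used here give no RMA version; the log base was taken from the values, 0.47 to 12.53. Quantile normalisation forces equal distributions, and low values understate folds. No scanner files were used.

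The 77 manufacturer's control probe sets of 22625 were left out. Symbols came from the platform annotation, updated through RefSeq (WBcel235, names only): 20766 probe sets name 1 gene, 887 several, 895 none. The rank product (100 permutations within arrays, Python 3.11.15, numpy 2.4.6) was the main test; limma 3.58.1 (R 4.3.3; two-sided, Benjamini-Hochberg over all probe sets) stood beside it. Both were tested on simulated data. Members and lists were chosen with earlier results of these data known. Named genes were the 8 members, the genes called in each list (at most 5, by size), each list's gene of highest mean, and the 10 genes most like the members (SD at least 0.5 of the mean profile's, not cross-hybridising). The replicate number was used as a pairing block in an alternative, although the labels do not say that it pairs samples. Deviations of same-numbered arrays correlated at 0.11, 0.37 and 0.26. Those of differently numbered arrays ran from -0.37 to 0.28, the highest being control replicate 3 with tyrosol replicate 1. The pairing is therefore unsettled. Alternatives left out arrays, faint or cross-hybridising probe sets, or changed the seed, the scaling or the choice of probe set.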

Additional observations from a re-analysis of the deposited data

How the results depend on the processing

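All single-gene differences of the 8 members stayed above 0 under the alternatives run, 182 values over both tests. Of these, 149 kept their side of the threshold, 24 lost the call and 9 gained it. Many could not change sign. Both tests share the same difference, and another seed or the replicate block leaves it unchanged. Averaging also leaves noah-2 and let-653 unchanged, which have a single probe set each. The rank product called 215 probe sets with all arrays, 101 to 213 without any 1 array, 106 without both replicate 2 arrays and 134 with a mean of at least 4; limma called 76. With the replicate block the rank product called 237 and limma 163 probe sets. The members called higher were 4 with all arrays and 2 to 6 without any 1 array: lpr-3 and mlt-11 alone without any 1 tyrosol array, and fbn-1 and sym-1 in addition without control replicate 2. Without both replicate 2 arrays 3 were called, noah-2 being lost. Limma called 2, noah-2 and lpr-3, and 4 with the replicate block, which changed no rank product call among the members. With a mean of at least 4, 2 were called, noah-1 and noah-2, as that filter keeps only 3 of the members. The median difference of 0.71 ran from 0.65 to 0.83 without any 1 array and was 0.54 with probe sets averaged. Of 362 rank product values of 31 other named genes, 324 kept direction and call, 28 lost the call and 1 gained it, while 9 changed sign, none of them of a called gene. These were egg-6 and lin-26 without control replicate 2 (-0.019 and -0.017, beside highest values without any 1 array of 0.17 and 0.077), without both replicate 2 arrays (-0.015 and -0.020) and with probe sets averaged (-0.061 and -0.32), and pal-1, erm-1 and lit-1 with probe sets averaged (-0.18, -0.19 and -0.011). The cause was not tested. The small number of arrays limits the precision of every value, and faint signals limit what can be read from fbn-1, let-653, dex-1 and the called genes mlt-11 and lpr-3, whose means lie under 4.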
